A study of Homo sapiens with 96 samples.

Results

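The genes described here are the ATP-binding cassette (ABC) transporter genes, taken as every gene whose symbol in the 8 deposited splicing tables is ABC followed by a subfamily letter from A to G and a number. The rule found 36 genes of 14359 and 1373 splicing events of 239131, and it used no measured value. ABC transporters with other symbols, such as TAP1, TAP2, and CFTR, fall outside it. These events fall on 776 alternative segments, because several events can share an exon: 431 segments of skipped exons (SE), 260 pairs of mutually exclusive exons (MXE), 37 alternative 3′ splice sites (A3SS), 20 alternative 5′ splice sites (A5SS), and 28 retained introns (RI). The tables come from poly(A)-RNA seq of the A549 cell line, which is derived from a human alveolar adenocarcinoma, and cover 30 libraries in 10 groups of 3. The cells received 1 µM GSK591, which inhibits PRMT5 and so symmetric arginine dimethylation, or 1 µM MS023, an inhibitor of Type I PRMTs and so of asymmetric arginine dimethylation, for 2, 4, or 7 days. Co-treatment with 1 µM of each lasted 2 or 4 days, and the control cells received 0.01% DMSO for 4 or 7 days. No source used here says whether the 3 libraries of a group came from separate cultures, so the p-values measure the spread between libraries. The inhibitor libraries of 2 and 4 days were both set against DMSO at 4 days, so that a difference of time and one of treatment cannot be told apart in the 2-day comparisons. All comparisons of 2 and 4 days thus share the same 3 DMSO libraries of 4 days, and the 7-day comparisons share their own 3. Calls of an event in several comparisons with shared controls are not independent. That the control columns of the 7-day tables are DMSO at 7 days was inferred, since no label names them, and all 7-day ΔΨ values rest on it.

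ABC proteins are built from membrane-spanning domains and nucleotide-binding domains that hydrolyse ATP, and most of them move lipids, peptides, drugs, or conjugated metabolites across a membrane. The multidrug resistance proteins of subfamily C and ABCG2 export drugs and their conjugates from the cell, members of subfamily A move lipids, and ABCA3 loads surfactant lipids into the lamellar bodies of alveolar type II cells. Subfamilies E and F have no membrane-spanning domain and act in translation. An intron kept in poly(A)-RNA, or an exon left out, can change the reading frame of such long multi-exon messages.

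For each event the tables give, in every library, the reads that include and the reads that leave out the alternative segment. Ψ is the share of inclusion after each count is divided by its effective length, and ΔΨ is Ψ with inhibitor minus Ψ with DMSO. An event was tested where all 6 libraries of a comparison had at least 10 reads and both forms had reads, and called at an adjusted p under 0.05. Of the 1373 events, 1181 were tested in at least 1 comparison. The libraries held 72359972 to 107061919 reads on all events and 281820 to 688738 on ABC events, and the lowest library of a tested ABC event had a median of 253 reads. One library stood apart, replicate a of GSK591 at 2 days, in which ABC events took 0.267% of the reads against 0.480% and 0.481% in the other two; without it 52 ABC events were called with GSK591 at 2 days instead of 56. The epithelial keratin genes KRT8 and KRT18 had a mean of up to 68610 and 43920 reads on an event, and the epithelial adhesion genes EPCAM and CDH1 of up to 114.5 and 311.7. KRT19, another epithelial keratin, was on no listed event. The surfactant gene SFTPC of alveolar type II cells reached 3.167 reads, and SFTPB and NKX2-1, the lung lineage factor, were on no listed event. Of the markers of other cells, COL1A1 reached 54.17 reads and CD3E 3, and PTPRC, PECAM1, and ALB were on no listed event. Only reads on splicing events are measured, so absence from the listed events does not show low expression.

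The introns and exons on which the results below turn are given first, from GRCh37 (hg19), 5′ to 3′ on the gene's strand, with exons and introns numbered along the MANE Select transcript. Capitals mark the first and last intron bases GT and AG and the first stop codon in the frame of the upstream exons. Intron 24 of ABCC3 lies at chr17:48755305-48755453 on the plus strand, and introns 5 and 2 of ABCF3 at chr3:183905550-183905648 and chr3:183904443-183904583 on the plus strand. Intron 3 of ABCB8, at chr7:150731516-150731591 on the plus strand, is shown because it holds no such stop codon. In intron 5 of ABCF3 the stop codon starts at base 2 and joins the GT in capitals.
ABCC3 intron 24: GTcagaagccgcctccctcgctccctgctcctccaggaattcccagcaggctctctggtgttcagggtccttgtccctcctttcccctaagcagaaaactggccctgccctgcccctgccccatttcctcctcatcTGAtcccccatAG
ABCF3 intron 5: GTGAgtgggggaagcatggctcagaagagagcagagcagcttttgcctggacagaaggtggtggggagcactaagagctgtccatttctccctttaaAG
ABCF3 intron 2: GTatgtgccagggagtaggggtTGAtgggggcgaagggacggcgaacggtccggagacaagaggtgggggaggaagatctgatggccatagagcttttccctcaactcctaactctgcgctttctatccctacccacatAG
ABCB8 intron 3: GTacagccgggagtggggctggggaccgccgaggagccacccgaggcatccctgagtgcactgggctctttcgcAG

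The pair of extra splice sites of ABCC3 lies inside intron 6, and in both stretches the part that is exonic only with the extra site is in capitals. The extra 5′ site lengthens exon 6 by 50 bases (stretch chr17:48735843-48735922, plus strand), and the extra 3′ site lengthens exon 7 by 55 bases (stretch chr17:48736518-48736612, plus strand). The exons of ABCA3, ABCB6, and ABCC2 shown next, in capitals with 10 intron bases on either side, are shown for the exon skipping described below, which was called with MS023 in ABCA3 and with GSK591 and co-treatment in ABCB6 and ABCC2. They are exon 11 of ABCA3 (chr16:2358441-2358634, minus strand), exon 5 of ABCB6 (chr2:220080709-220080912, minus strand), and exon 26 of ABCC2 (chr10:101601714-101601860, plus strand). Exon 3 of ABCA2 is a microexon of 3 bases, shown in capitals with 30 intron bases on either side (chr9:139918260-139918322, minus strand).
ABCC3 exon 6 donors: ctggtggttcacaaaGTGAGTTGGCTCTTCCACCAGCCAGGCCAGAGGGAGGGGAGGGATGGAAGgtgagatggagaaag
ABCC3 exon 7 acceptors: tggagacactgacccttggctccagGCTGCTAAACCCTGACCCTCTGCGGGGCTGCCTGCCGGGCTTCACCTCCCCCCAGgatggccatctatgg
ABCA3 exon 11: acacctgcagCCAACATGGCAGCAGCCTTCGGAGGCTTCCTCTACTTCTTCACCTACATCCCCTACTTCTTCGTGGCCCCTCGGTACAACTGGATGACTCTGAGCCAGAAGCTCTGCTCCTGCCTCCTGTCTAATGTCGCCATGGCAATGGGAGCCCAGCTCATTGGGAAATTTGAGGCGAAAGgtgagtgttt
ABCB6 exon 5: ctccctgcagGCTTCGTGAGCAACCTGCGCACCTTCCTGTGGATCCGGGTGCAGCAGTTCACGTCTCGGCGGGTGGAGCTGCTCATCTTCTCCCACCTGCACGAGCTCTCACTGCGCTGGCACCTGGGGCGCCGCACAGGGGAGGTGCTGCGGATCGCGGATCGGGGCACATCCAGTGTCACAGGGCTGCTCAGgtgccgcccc
ABCC2 exon 26: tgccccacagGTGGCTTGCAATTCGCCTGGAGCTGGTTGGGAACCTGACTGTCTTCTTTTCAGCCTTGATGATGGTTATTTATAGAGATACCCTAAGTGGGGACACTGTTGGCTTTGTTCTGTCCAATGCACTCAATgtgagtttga
ABCA2 exon 3: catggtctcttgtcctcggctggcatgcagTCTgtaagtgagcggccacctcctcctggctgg

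In ABC genes, introns were retained more and exons were skipped more with GSK591 and co-treatment than with DMSO, whereas few events changed with MS023 alone. All 55 RI calls with GSK591 or co-treatment were toward more retention, and all 5 with MS023 alone were toward less. The 55 calls fell on introns of 8 genes, ABCF3, ABCA2, ABCB8, ABCC3, ABCD4, ABCB6, ABCC10, and ABCA7. The segment listed for ABCA7 is not an intron of the MANE Select transcript, but spans exon 4 and the introns on either side. Its spliced form joins exon 3 to exon 5, so its Ψ also depends on inclusion of exon 4. Over all 5 event types, 56 of 620 tested ABC events were called with GSK591 at 2 days (9.03%, against 7.02% of all events in the tables), 99 of 713 at 4 days (13.9% against 11.2%), and 57 of 626 at 7 days (9.11% against 8.93%). With co-treatment 113 of 696 were called at 2 days (16.2% against 13.4%) and 107 of 679 at 4 days (15.8% against 14.7%). With MS023 alone 13 of 601 were called at 2 days (2.16% against 3.16%), 25 of 611 at 4 days (4.09% against 3.75%), and 30 of 593 at 7 days (5.06% against 4.75%). Over the 5 types together the shares of ABC events thus lay near those of all events in every comparison, and these counts say nothing particular to this gene family. The shares by type differed more, as given below for RI and MXE events. The calls depended on the test. A limma fit on the log2 odds, a stricter alternative, called 8, 30, and 12 ABC events with GSK591 at 2, 4, and 7 days, 26 and 45 with co-treatment, and 0 with MS023 at any time, where 46, 47, and 73 events had an unadjusted p under 0.05. The shares of all events that limma called, or that had such a p, are not given here. Whether these limma counts are particular to ABC genes is therefore not known. Of the 138 calls with GSK591 or co-treatment on the events described below, limma kept 56, and of the 34 with MS023 it kept 0. Every call with MS023 given below is therefore one of the quasi-binomial F test alone. The counts also fell when a library was left out: the lowest count was 32, 62, and 36 with GSK591 at 2, 4, and 7 days, 67 and 69 with co-treatment, and 1, 6, and 16 with MS023.

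Skipped exons changed mostly toward less inclusion with GSK591 and co-treatment. Exons with lower inclusion made up 30 of 32 called SE events at 2 days of GSK591, 40 of 51 at 4 days, and 15 of 23 at 7 days, and 60 of 65 and 39 of 58 at 2 and 4 days of co-treatment. As shares of the tested SE events of ABC genes, SE events called lower were 7.71%, 9.09%, and 3.79% with GSK591 at 2, 4, and 7 days, against 5.82%, 8.07%, and 4.96% of all SE events. With co-treatment they were 13.8% and 9.2%, against 11.5% and 10.6%.

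**Figure D1:**
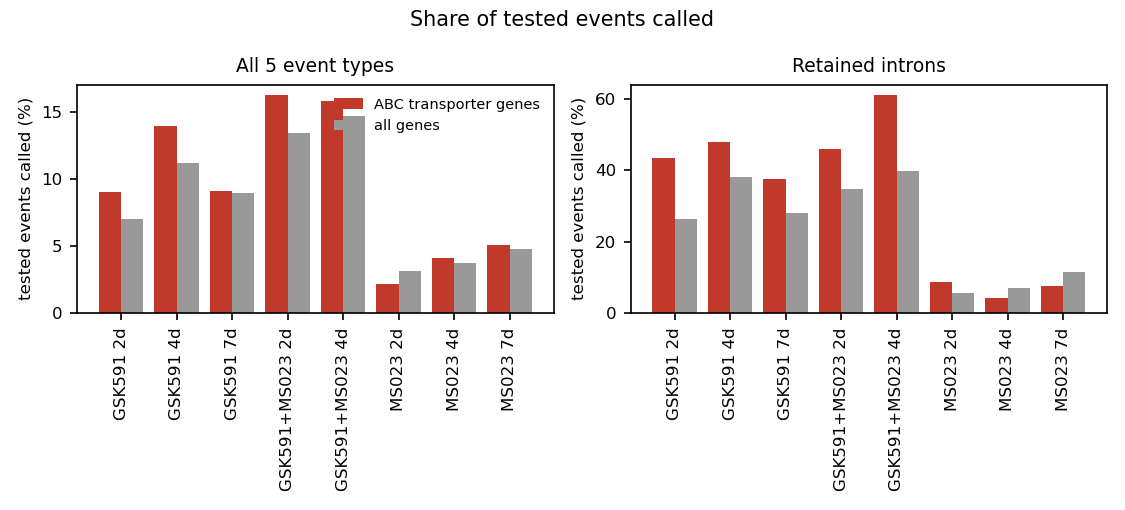
Percent of tested splicing events called in each of the 8 comparisons with DMSO, for ABC genes and for all genes, over all 5 event types and over retained introns (RI) alone. The share of RI called is larger than the share of all events called with GSK591 and co-treatment for ABC genes and for all genes alike, and with MS023 few RI of ABC genes were called, 1 of 23 at 4 days.

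Of the 28 introns listed as retained, 27 were tested and 18 were called in at least 1 comparison. The share of all RI called in at least 1 comparison is not given here. With GSK591, 10 of 23 tested introns were called at 2 days, 11 of 23 at 4 days, and 9 of 24 at 7 days, all higher. These are 43.5%, 47.8%, and 37.5% of the tested ABC introns, against 26.4%, 38.2%, and 27.9% of all tested RI called in either direction and 24%, 33.9%, and 21.8% called higher. With co-treatment, 11 of 24 were called at 2 days and 14 of 23 at 4 days, all higher, or 45.8% and 60.9%, against 34.7% and 39.7% of all RI in either direction and 29.7% and 33.6% called higher. The shares of ABC introns were above those of all RI, but rest on 23 or 24 introns that partly share a gene, and this difference was not tested. The median ΔΨ over the tested ABC introns was 0.0579, 0.0963, and 0.0385 with GSK591 at 2, 4, and 7 days, against 0.0150, 0.0196, and 0.00762 over all RI, and 0.0519 and 0.0671 with co-treatment, against 0.0161 at both times. With MS023, 2 of 23, 1 of 23, and 2 of 26 introns were called at 2, 4, and 7 days, all lower. These shares of 8.7%, 4.35%, and 7.69% lay near the 5.65%, 7.17%, and 11.4% of all RI called in either direction and the 4.21%, 5.6%, and 9.49% called lower. All 28 introns had GT and AG ends. Their median length was 196.5 bases and their median GC content 59.4%, against 262 bases and 57.4% over all 4904 listed RI. Of the 22 that are introns of the MANE Select transcript, 19 held a stop codon in the upstream reading frame.

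Intron 24 of ABCC3 was the most retained ABC intron that changed. ABCC3, or MRP3, exports conjugated bile acids and glucuronides. Its Ψ was 0.357, 0.423, and 0.390 in the 4-day DMSO libraries, 0.552, 0.557, and 0.599 with GSK591 at 2 days, and 0.739, 0.721, and 0.748 at 4 days. With co-treatment it was 0.657, 0.678, and 0.647 at 2 days and 0.766, 0.780, and 0.757 at 4 days. Every library with GSK591 thus lay above every DMSO library of its comparison, and the 4-day libraries lay above the 2-day ones in both treatments. At 7 days Ψ was 0.308, 0.287, and 0.335 with DMSO and 0.587, 0.588, and 0.612 with GSK591. ΔΨ was +0.179, +0.346, and +0.286 with GSK591 at 2, 4, and 7 days (adjusted p = 6e-06, 2.4e-12, and 2.1e-11) and +0.271 and +0.378 with co-treatment (adjusted p = 1.1e-10 and 7.9e-15), on 1112 to 3135 reads per library, and limma kept all 5 calls. With MS023 retention was 0.308, 0.343, and 0.344 at 2 days, a ΔΨ of -0.0583 (adjusted p = 0.027), and this call was lost without DMSO replicate b or any MS023 library (adjusted p = 0.072 to 0.23). At 4 and 7 days ΔΨ with MS023 was -0.0350 and -0.0360 and was not called (adjusted p = 0.27 and 0.074). Co-treatment exceeded GSK591 by 0.0915 in Ψ at 2 days (GSK591 minus co-treatment -0.0915, adjusted p = 0.0066), a difference that was not called at 4 days (-0.0315, adjusted p = 0.11).

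ABCF3, a soluble protein of translation control, had 8 of the 28 listed introns, and 7 of them were called. Ψ of intron 5 was 0.0721, 0.0815, and 0.0574 with DMSO at 4 days and 0.234, 0.266, and 0.312 with GSK591 at 4 days. Ψ of intron 4 was 0.0846, 0.0797, and 0.0928 with DMSO and 0.281, 0.205, and 0.244 with GSK591 at 4 days. Ψ of intron 2 was 0.0402, 0.0268, and 0.0392 with DMSO and 0.215, 0.148, and 0.164 with GSK591 at 4 days. At 4 days the GSK591 libraries of all 3 introns lay above the DMSO libraries without overlap, and each intron was called in all 5 comparisons with GSK591 or co-treatment. For intron 5, ΔΨ was +0.0940, +0.201, and +0.100 with GSK591 at 2, 4, and 7 days and +0.130 and +0.105 with co-treatment. For intron 4, ΔΨ was +0.0654, +0.157, and +0.118 with GSK591 and +0.0710 and +0.0658 with co-treatment. For intron 2, ΔΨ was +0.0694, +0.140, and +0.0486 with GSK591 and +0.0415 and +0.0566 with co-treatment. Adjusted p was at most 0.044 in these 15 comparisons, and none of the 3 introns was called with MS023. Calls of intron 2 were lost with GSK591 at 7 days without DMSO replicate a or GSK591 replicate b (adjusted p = 0.056 to 0.065), with co-treatment at 2 days without any of 5 of the 6 libraries (adjusted p = 0.083 to 0.34), and with co-treatment at 4 days without replicate c (adjusted p = 0.095). The call of intron 4 with GSK591 at 2 days was lost without DMSO replicate b (adjusted p = 0.057) or GSK591 replicate b (adjusted p = 0.11). At 4 days GSK591 alone gave more retention than co-treatment in intron 2 (by 0.0838, adjusted p = 0.014) and intron 4 (by 0.0917, adjusted p = 0.024), while for intron 5 the difference was +0.0951 with an adjusted p = 0.064. The other 2 members of subfamily F, ABCF1 and ABCF2, had no listed RI.

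Intron 3 of ABCA2, a sterol and lipid transporter of endosomes and lysosomes, was also called in all 5 comparisons. It is 785 bases long, at chr9:139917505-139918289 on the minus strand, with a stop codon at base 6. Its Ψ was 0.242, 0.264, and 0.240 with DMSO at 4 days, 0.595, 0.631, and 0.423 with GSK591 at 4 days, and 0.765, 0.633, and 0.765 with co-treatment at 4 days. At 7 days Ψ was 0.268, 0.257, and 0.245 with DMSO and 0.609, 0.512, and 0.509 with GSK591. ΔΨ was +0.288, +0.301, and +0.286 with GSK591 at 2, 4, and 7 days (adjusted p = 0.0016, 0.0011, and 0.0015) and +0.225 and +0.473 with co-treatment (adjusted p = 0.0025 and 2.9e-06). The intron adjoins the 3-base exon 3, whose Ψ fell: it was 0.535, 0.598, and 0.428 with DMSO at 4 days, 0.175, 0.173, and 0.293 with GSK591 at 4 days, and 0.125, 0.155, and 0.123 with co-treatment at 4 days. ΔΨ of exon 3 was -0.307 (adjusted p = 0.00057) and -0.386 (adjusted p = 1.7e-06) in these comparisons and -0.182 (adjusted p = 0.048) with co-treatment at 2 days, the last lost without DMSO replicate a or b or any co-treatment library (adjusted p = 0.10 to 0.36). With GSK591 at 2 and 7 days ΔΨ of exon 3 was -0.235 and -0.135 and was not called (adjusted p = 0.05 and 0.32). The spliced form counted for the intron is the junction of exons 3 and 4, which is also lost when exon 3 is skipped. Reads that join exon 2 to exon 4 do not enter Ψ of the intron. The 2 events are therefore not independent, and how far skipping of exon 3 enters Ψ of intron 3 was not tested. Neither the intron nor the exon was called with MS023. Short introns 4 and 7 of ABCA2 were called with co-treatment at 4 days, with a ΔΨ of +0.111 and +0.0671 (adjusted p = 0.0013 and 0.0057). Intron 4 was also called with GSK591 at 7 days (ΔΨ +0.0963, adjusted p = 0.034) and intron 7 with co-treatment at 2 days (ΔΨ +0.0557, adjusted p = 0.019), both lost without 4 of the 6 libraries (adjusted p = 0.062 to 0.14).

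ABCB8, a transporter of the inner mitochondrial membrane, had the sixth intron called in all 5 comparisons. Ψ of intron 3 was 0.0750, 0.104, and 0.0446 with DMSO at 4 days, 0.246, 0.226, and 0.197 with GSK591 at 4 days, and 0.216, 0.253, and 0.268 with co-treatment at 4 days. ΔΨ was +0.0831, +0.148, and +0.0671 with GSK591 at 2, 4, and 7 days and +0.113 and +0.171 with co-treatment (adjusted p between 3.1e-06 and 0.027). The call with GSK591 at 2 days was lost without DMSO replicate c or GSK591 replicate b (adjusted p = 0.061 to 0.092), and that at 7 days without DMSO replicate b or GSK591 replicate a or c (adjusted p = 0.062 to 0.12).

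In ABCB6, a transporter linked to porphyrins, retention moved in opposite directions with the inhibitors. Intron 16 (235 bases, chr2:220075198-220075432, minus strand) had a Ψ of 0.170, 0.158, and 0.162 with DMSO at 4 days, 0.326, 0.323, and 0.427 with GSK591 at 2 days, and 0.314, 0.292, and 0.291 at 4 days. With MS023 Ψ was 0.133, 0.122, and 0.0891 at 2 days and 0.114, 0.0815, and 0.0922 at 4 days. The GSK591 libraries lay above and the MS023 libraries below all 3 DMSO libraries. At 7 days Ψ was 0.171, 0.191, and 0.193 with DMSO, 0.205, 0.251, and 0.159 with GSK591, and 0.0684, 0.0826, and 0.0771 with MS023, so that the GSK591 libraries overlapped the DMSO libraries. ΔΨ was +0.195, +0.136, and +0.0197 with GSK591 (adjusted p = 8e-06, 8.2e-07, and 0.48), +0.184 and +0.0836 with co-treatment (adjusted p = 6e-08 and 0.00017), and -0.0487, -0.0674, and -0.109 with MS023 (adjusted p = 0.040, 0.0018, and 2.3e-07). The MS023 call at 2 days was lost without any library but MS023 replicate a (adjusted p = 0.052 to 0.24), and those at 4 and 7 days were kept without each. Under limma the MS023 differences had an adjusted p of 0.43, 0.20, and 0.072.

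Introns of ABCC10 and ABCD4 were called in fewer comparisons. ABCC10 is a multidrug resistance protein, and ABCD4 carries cobalamin out of lysosomes. Ψ of ABCC10 intron 10 (773 bases, chr6:43410898-43411670, plus strand) was 0.212, 0.248, and 0.293 with DMSO at 4 days and 0.430, 0.505, and 0.609 with GSK591 at 2 days. ΔΨ was +0.264, +0.182, and +0.185 with GSK591 at 2, 4, and 7 days (adjusted p = 0.0025, 0.010, and 0.0021), +0.138 with co-treatment at 4 days (adjusted p = 0.0097), and +0.0975 at 2 days, which was not called (adjusted p = 0.083). The 4-day calls of both treatments were lost without DMSO replicate a (adjusted p = 0.072 and 0.073). Ψ of ABCD4 intron 8 (284 bases, chr14:74759573-74759856, minus strand) was 0.214, 0.247, and 0.232 with DMSO at 4 days and 0.352, 0.517, and 0.514 with GSK591 at 2 days. ΔΨ of intron 8 was +0.230 and +0.159 with GSK591 at 2 and 4 days (adjusted p = 0.0046 and 0.0042) and +0.131 with co-treatment at 4 days (adjusted p = 0.014), the last lost without DMSO replicate a or co-treatment replicate b (adjusted p = 0.050 to 0.058). At 7 days of GSK591 it was +0.0387 and not called (adjusted p = 0.40). ABCD4 intron 4 (1480 bases, chr14:74763153-74764632, minus strand) had a ΔΨ of +0.106 with GSK591 at 4 days (adjusted p = 0.0068) and of +0.0740 with co-treatment at 4 days (adjusted p = 0.048), the latter lost without 4 of the 6 libraries (adjusted p = 0.083 to 0.21). With GSK591 at 7 days its ΔΨ turned to -0.0597, which was not called (adjusted p = 0.23), and with MS023 at 7 days it was -0.108 (adjusted p = 0.0090). Its 7-day DMSO libraries were spread from 0.125 to 0.287, and the MS023 libraries, at 0.0905, 0.0809, and 0.101, lay below them. This MS023 call was lost without replicate b of DMSO or of MS023 (adjusted p = 0.069 to 0.090).

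The 5′ splice sites of 6 of these introns are printed for comparison, with the last 3 exon bases in lower case and the first 6 intron bases in capitals.
ABCA2 intron 3: tctGTAAGT
ABCB6 intron 16: gagGTGCGC
ABCC10 intron 10: ctgGTAATG
ABCD4 intron 8: acaGTAGGC
ABCF3 intron 4: tcgGTGAGG
ABCC3 intron 24: ccgGTCAGA

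Beside intron 24, ABCC3 had the largest number of called events of any ABC gene, on 47 of its 78 segments. These were 81 of 213 tested and 239 listed events, against 232 of 1181 tested events over all ABC genes. ABCC3 also had the most tested events, and calls are counted here over all 8 comparisons. Of the 81 events, 35 were MXE events, several of which share an exon. The extra splice sites of intron 6 were used more with GSK591. Ψ of the extra 5′ site, joined to the annotated start of exon 7, was 0.0268, 0.0484, and 0.0380 with DMSO at 4 days and 0.287, 0.296, and 0.319 with GSK591 at 4 days. At 7 days it was 0.0578, 0.0540, and 0.0509 with DMSO, 0.258, 0.221, and 0.234 with GSK591, and 0.0221, 0.0289, and 0.0198 with MS023. The GSK591 libraries lay above, and the 7-day MS023 libraries below, all DMSO libraries of their comparison. ΔΨ was +0.135, +0.263, and +0.183 with GSK591 at 2, 4, and 7 days (adjusted p = 4.6e-10, 1.1e-13, and 3.5e-23), +0.150 and +0.175 with co-treatment (adjusted p = 3.4e-10 and 2.1e-12), and -0.0175 and -0.0306 with MS023 at 4 and 7 days (adjusted p = 0.026 and 9.1e-05). The MS023 call at 4 days was lost without any library but DMSO replicate a (adjusted p = 0.080 to 0.29). Limma kept the calls at 4 days of GSK591 and at both times of co-treatment, and gave GSK591 at 2 and 7 days an adjusted p of 0.053 and 0.055.

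Ψ of the extra 3′ site, joined to the annotated end of exon 6, was 0.0709, 0.0855, and 0.102 with DMSO at 4 days and 0.390, 0.391, and 0.421 with GSK591 at 4 days. At 7 days it was 0.112, 0.0932, and 0.0947 with DMSO, 0.378, 0.296, and 0.289 with GSK591, and 0.0523, 0.0455, and 0.0573 with MS023. The order of the groups was that of the 5′ site. ΔΨ was +0.181, +0.314, and +0.221 with GSK591 (adjusted p = 1.7e-13, 1.4e-26, and 8.2e-18), +0.187 and +0.229 with co-treatment (adjusted p = 6e-18 and 7.2e-18), and -0.0483 with MS023 at 7 days (adjusted p = 2.2e-06). Of these calls limma kept the one of co-treatment at 4 days. At 4 days GSK591 alone gave more use of both sites than co-treatment, by 0.0873 in Ψ for the 5′ site (adjusted p = 9.3e-05) and 0.0849 for the 3′ site (adjusted p = 0.00010). Inclusion counts take in reads that lie within the extra part, which a wholly retained intron 6 would also give, and how far such reads enter these values was not tested. Across the other 17 segments of ABCC3 that met the rule for named events, the called ΔΨ had a size of 0.0206 to 0.329, with 35 calls higher and 23 lower.

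**Figure D2:**
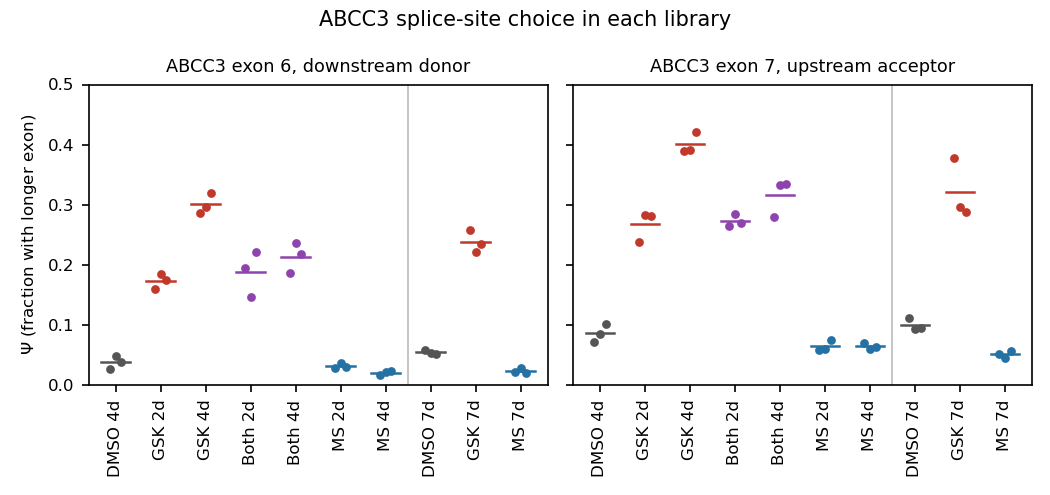
Ψ of the extra 5′ splice site of ABCC3 exon 6 and of the extra 3′ splice site of exon 7 in each library (points) with group means (bars), by treatment and time. Both sites rise in all GSK591 and co-treatment groups, to 0.319 and 0.421 in the highest GSK591 library at 4 days, and the MS023 libraries of 7 days lie below the 7-day DMSO libraries.

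Exon 5 of ABCB6, a coding exon of 184 bases, had the largest fall in inclusion among the events described here. Its Ψ, measured between exons 4 and 6, was 0.938, 0.879, and 0.898 with DMSO at 4 days, 0.630, 0.488, and 0.499 with GSK591 at 2 days, and 0.499, 0.361, and 0.388 at 4 days. With co-treatment it was 0.685, 0.645, and 0.633 at 2 days and 0.532, 0.573, and 0.543 at 4 days. None of these libraries reached the DMSO range, and co-treatment left more of the exon in than GSK591 alone, by 0.116 at 2 days and 0.134 at 4 days (GSK591 minus co-treatment -0.116 and -0.134, adjusted p = 0.043 and 0.0020). At 7 days Ψ was 0.814, 0.846, and 0.840 with DMSO, 0.494, 0.518, and 0.476 with GSK591, and 0.946, 0.945, and 0.947 with MS023. ΔΨ was -0.366, -0.489, and -0.337 with GSK591 at 2, 4, and 7 days (adjusted p = 1.2e-11, 1.6e-18, and 4.5e-24) and -0.251 and -0.356 with co-treatment (adjusted p = 1.3e-09 and 6.2e-13). With MS023 it was +0.0306, +0.0606, and +0.113, called at 4 and 7 days (adjusted p = 0.33, 0.0011, and 1.2e-08), and the 4-day call was lost without DMSO replicate b or any MS023 library (adjusted p = 0.051 to 0.096). Limma kept the calls of GSK591 and co-treatment at 4 days (adjusted p = 0.030 and 0.026) and gave the other 3 an adjusted p of 0.064 to 0.10. Exon 3 of ABCB6 (181 bases, chr2:220081374-220081554, minus strand) had a ΔΨ of -0.204, -0.294, and -0.276 with GSK591 and -0.208 and -0.227 with co-treatment, all called by the main test with adjusted p of at most 2.3e-06 and none by limma (adjusted p = 0.063 to 0.19). It was not called with MS023. Exons 3, 5, 6, and 7 of ABCB6 also overlap exons of another annotated gene, ENSG00000284820. The strand of that gene was not looked up, and how far its reads enter these values was not tested.

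Exon 26 of ABCC2, or MRP2, which exports conjugates across the apical membrane, was called in all 8 comparisons, and in each of them without each library in turn. Its Ψ was 0.941, 0.948, and 0.958 with DMSO at 4 days, 0.859, 0.858, and 0.861 with GSK591 at 4 days, 0.825, 0.827, and 0.828 with co-treatment at 4 days, and 0.984, 0.983, and 0.979 with MS023 at 4 days. The 4 groups of this time do not overlap, with inclusion highest with MS023 and lowest with co-treatment. ΔΨ was -0.104, -0.0894, and -0.0421 with GSK591 at 2, 4, and 7 days (adjusted p = 2.5e-13, 1e-14, and 3.8e-06), -0.108 and -0.123 with co-treatment (adjusted p = 1.9e-17 and 4.1e-18), and +0.0305, +0.0329, and +0.0416 with MS023 (adjusted p = 2.7e-09, 1.7e-10, and 8e-17), on 1596 to 6571 reads per library. The lower inclusion with co-treatment than with GSK591 at 4 days, by 0.0331, was called in their direct comparison (adjusted p = 0.00048). Limma called none of the 8 (adjusted p = 0.083 to 0.60). The exon has 127 bases, which is not a multiple of 3.

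Exon 11 of ABCA3, the surfactant lipid transporter, was skipped more with MS023, and no call with GSK591 or co-treatment was toward skipping. It has 174 bases, a multiple of 3. Its Ψ was 0.961, 0.910, and 0.988 with DMSO at 4 days, 0.656, 0.781, and 0.384 with MS023 at 2 days, and 0.739, 0.698, and 0.852 at 4 days. At 7 days it was 0.979, 1.000, and 0.982 with DMSO and 0.822, 0.726, and 0.706 with MS023. Every MS023 library thus lay below every DMSO library. With co-treatment Ψ was 0.866, 1.000, and 1.000 at 2 days and 1.000, 0.941, and 1.000 at 4 days, and with GSK591 at 4 days all 3 libraries were at 1.000. The latter was called as higher inclusion (ΔΨ +0.0472, adjusted p = 0.030), and this call was lost without 5 of the 6 libraries (adjusted p = 0.068 to 0.21). ΔΨ with MS023 was -0.345, -0.190, and -0.236 at 2, 4, and 7 days (adjusted p = 1.3e-06, 0.0045, and 0.00036), on 27 to 176 reads per library. The call at 7 days was kept without each library, the one at 2 days was lost without MS023 replicate a or c (adjusted p = 0.051 and 0.14), and the one at 4 days without DMSO replicate c or any MS023 library (adjusted p = 0.070 to 0.21). Limma gave these differences an adjusted p of 0.25, 0.29, and 0.10. Set directly against co-treatment, MS023 was lower by 0.348 at 2 days and 0.218 at 4 days (MS023 minus co-treatment -0.348 and -0.218, adjusted p = 0.019 and 0.0022), and GSK591 exceeded MS023 by 0.360, 0.237, and 0.245 at 2, 4, and 7 days (adjusted p = 5.8e-05, 9.3e-07, and 5.8e-07).

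ABCA7, a phospholipid transporter, lost exons with GSK591 and co-treatment. Ψ of its exon 28 (125 bases, chr19:1054569-1054693, plus strand) was 0.804, 0.854, and 0.843 with DMSO at 4 days, 0.445, 0.504, and 0.454 with GSK591 at 2 days, 0.497, 0.521, and 0.278 at 4 days, and 0.449, 0.723, and 0.233 with co-treatment at 2 days. The co-treatment libraries were widely spread, but none reached the DMSO range. ΔΨ was -0.366 and -0.402 with GSK591 at 2 and 4 days (adjusted p = 0.00013 and 2.5e-06) and -0.365 and -0.381 with co-treatment (adjusted p = 9.4e-05 and 2.3e-06), the call at 2 days of co-treatment being lost without its replicate c (adjusted p = 0.081). Limma called none of these 4 (adjusted p = 0.052 to 0.13). At 7 days of GSK591 it was -0.206 and was not called (adjusted p = 0.071). With MS023 at 7 days exon 28 was called in the opposite direction, with a ΔΨ of +0.174 (adjusted p = 0.029), from 0.648, 0.727, and 0.703 with DMSO to 0.910, 0.906, and 0.785, and this call was lost without any library (adjusted p = 0.054 to 0.29). Exon 4 of ABCA7 (142 bases) had a ΔΨ of -0.368 with GSK591 at 4 days and -0.362 and -0.372 with co-treatment (adjusted p = 0.00019, 0.00089, and 4.2e-05). Exon 30 (255 bases) had one of -0.144, -0.161, and -0.299 in the same comparisons (adjusted p = 0.044, 0.043, and 5.4e-05), of which the first pair was lost without any of 5 of the 6 libraries (adjusted p = 0.093 to 0.28). Exon 11 had one of -0.0903 and -0.120 with MS023 at 2 and 7 days (adjusted p = 0.030 and 0.00014), the first lost without any library (adjusted p = 0.076 to 0.24) and the second without MS023 replicate b (adjusted p = 0.052). With co-treatment at 2 days exon 11 had a ΔΨ of -0.0831 (adjusted p = 0.025), with libraries that overlapped DMSO, and the call was lost without 5 of the 6 libraries (adjusted p = 0.052 to 0.25).

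Exon 2 of ABCD4 (119 bases, chr14:74766853-74766971, minus strand) was skipped more with each inhibitor at 2 and 4 days. Its Ψ, measured against a longer form of exon 3, was 0.911, 0.926, and 0.892 with DMSO at 4 days, 0.498, 0.595, and 0.734 with GSK591 at 4 days, 0.543, 0.628, and 0.596 with co-treatment at 4 days, and 0.757, 0.731, and 0.683 with MS023 at 4 days. All libraries with an inhibitor lay below DMSO. ΔΨ was -0.304 and -0.300 with GSK591 at 2 and 4 days (adjusted p = 0.00014 and 0.00023), -0.249 and -0.320 with co-treatment (adjusted p = 0.00072 and 2.5e-06), and -0.221 and -0.186 with MS023 (adjusted p = 0.0076 and 0.018). The MS023 calls were lost without DMSO replicate b or any MS023 library at 2 days (adjusted p = 0.083 to 0.10) and without any library at 4 days (adjusted p = 0.054 to 0.17). Limma kept the call of co-treatment at 4 days and gave the others an adjusted p of 0.078 to 0.38. At 7 days neither inhibitor was called, with a ΔΨ of -0.0767 for GSK591 and -0.0358 for MS023 (adjusted p = 0.37 and 0.65). GSK591 and MS023 did not differ by a called amount at 2 or 4 days, with differences of -0.0832 and -0.114 (adjusted p = 0.56 and 0.38).

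Smaller or less covered changes were called in other exons. Exon 5 of ABCC1, or MRP1, an exporter of glutathione conjugates, had a Ψ of 0.976, 0.957, and 0.952 with DMSO at 4 days and 0.911, 0.864, and 0.853 with co-treatment at 2 days, without overlap. Its ΔΨ was -0.0860 and -0.0615 with co-treatment (adjusted p = 1.7e-08 and 2.1e-06), -0.0378 with GSK591 at 4 days (adjusted p = 0.0023), and -0.0402 and -0.0455 with MS023 at 2 and 4 days (adjusted p = 0.0011 and 0.00033), and the last 3 of these were lost without 2 or 3 of the 6 libraries (adjusted p = 0.052 to 0.12). Exon 13 of ABCB8 had a ΔΨ of -0.126 with GSK591 at 4 days (adjusted p = 5.5e-09), from 0.987, 0.984, and 0.987 to 0.894, 0.846, and 0.841. It was also called lower with GSK591 at 2 days and with co-treatment (ΔΨ -0.0657 to -0.0487), the former lost without GSK591 replicate b (adjusted p = 0.061), and higher with MS023 at 7 days (ΔΨ +0.0323, adjusted p = 0.012), lost without 5 of the 6 libraries (adjusted p = 0.069 to 0.17). A cassette of 72 bases in intron 1 of ABCD3 (chr1:94921289-94921360, not an annotated exon), the gene of a peroxisomal fatty acid transporter, had a ΔΨ of -0.0715 and -0.0753 with GSK591 at 2 and 4 days and -0.0504 and -0.0726 with co-treatment (adjusted p between 1e-06 and 0.0098), the call at 2 days of co-treatment being lost without DMSO replicate b or any co-treatment library (adjusted p = 0.077 to 0.14). A cassette in intron 1 of ABCC4, an exporter of cyclic nucleotides, had one of -0.0706 and -0.126 with co-treatment (adjusted p = 0.043 and 1.1e-05), the first lost without any library (adjusted p = 0.062 to 0.25), and was lower with co-treatment than with GSK591 at 4 days by 0.111 (adjusted p = 6.4e-05). Exon 35 of ABCA5 moved in opposite directions at 4 days, by -0.277 with GSK591 and +0.221 with MS023 (adjusted p = 0.048 and 0.038), on 24 to 62 reads per library, and the calls were lost without 5 and 6 of the 6 libraries (adjusted p = 0.054 to 0.34). GSK591 was lower than MS023 there by 0.394, 0.497, and 0.286 at 2, 4, and 7 days (GSK591 minus MS023 -0.394, -0.497, and -0.286, adjusted p = 0.010, 2.6e-06, and 0.0018). A cassette in intron 1 of ABCB8 had a ΔΨ of +0.414 with GSK591 and -0.189 with MS023 at 4 days (adjusted p = 0.014 and 0.032), on 11 to 60 reads and with DMSO libraries at 0.448, 0.386, and 0.0828, and both calls were lost without 5 of the 6 libraries (adjusted p = 0.077 to 0.33). Exon 19 of ABCC10 had a ΔΨ of -0.0972 with GSK591 and -0.108 with co-treatment at 4 days (adjusted p = 0.010 and 0.0026), lost without 5 and 3 of the 6 libraries (adjusted p = 0.050 to 0.14). An extra 5′ site in intron 15 of ABCD4 had one of +0.134 and +0.0967 in the same comparisons (adjusted p = 0.0037 and 0.016), the second lost without 4 of the 6 libraries (adjusted p = 0.074 to 0.10).

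MXE events of ABC genes mostly set 2 exons that are both part of the MANE Select transcript against each other, so that Ψ there compares the read density of 2 exons. Of the tested MXE events of ABC genes, 6.63%, 15.3%, and 12.7% were called with GSK591 at 2, 4, and 7 days, against 1.81%, 7.25%, and 5.49% of all MXE events. With co-treatment the shares were 16.5% and 15.5%, against 8.13% and 9.58%. With MS023 they were 1.32%, 3.8%, and 4.49%, against 0.956%, 1.4%, and 2.72%. Several of these events share an exon, and this difference was not tested. Of the 8 genes with a called MXE event, ABCC3 and ABCC2 held most, with 35 and 17 such events. In ABCC2, the share of exon 14 against exon 16 rose with GSK591, from 0.584, 0.564, and 0.566 with DMSO at 4 days to 0.706, 0.738, and 0.713, a ΔΨ of +0.147 (adjusted p = 3.2e-08), and was called higher in the other 4 comparisons with GSK591 or co-treatment (ΔΨ +0.0615 to +0.131), the one at 2 days of co-treatment being lost without its replicate a (adjusted p = 0.069). It fell with MS023 at 4 and 7 days, by a ΔΨ of -0.0599 and -0.0706 (adjusted p = 0.018 and 0.0033), the first lost without 4 of the 6 libraries (adjusted p = 0.063 to 0.14).

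**Figure D3:**
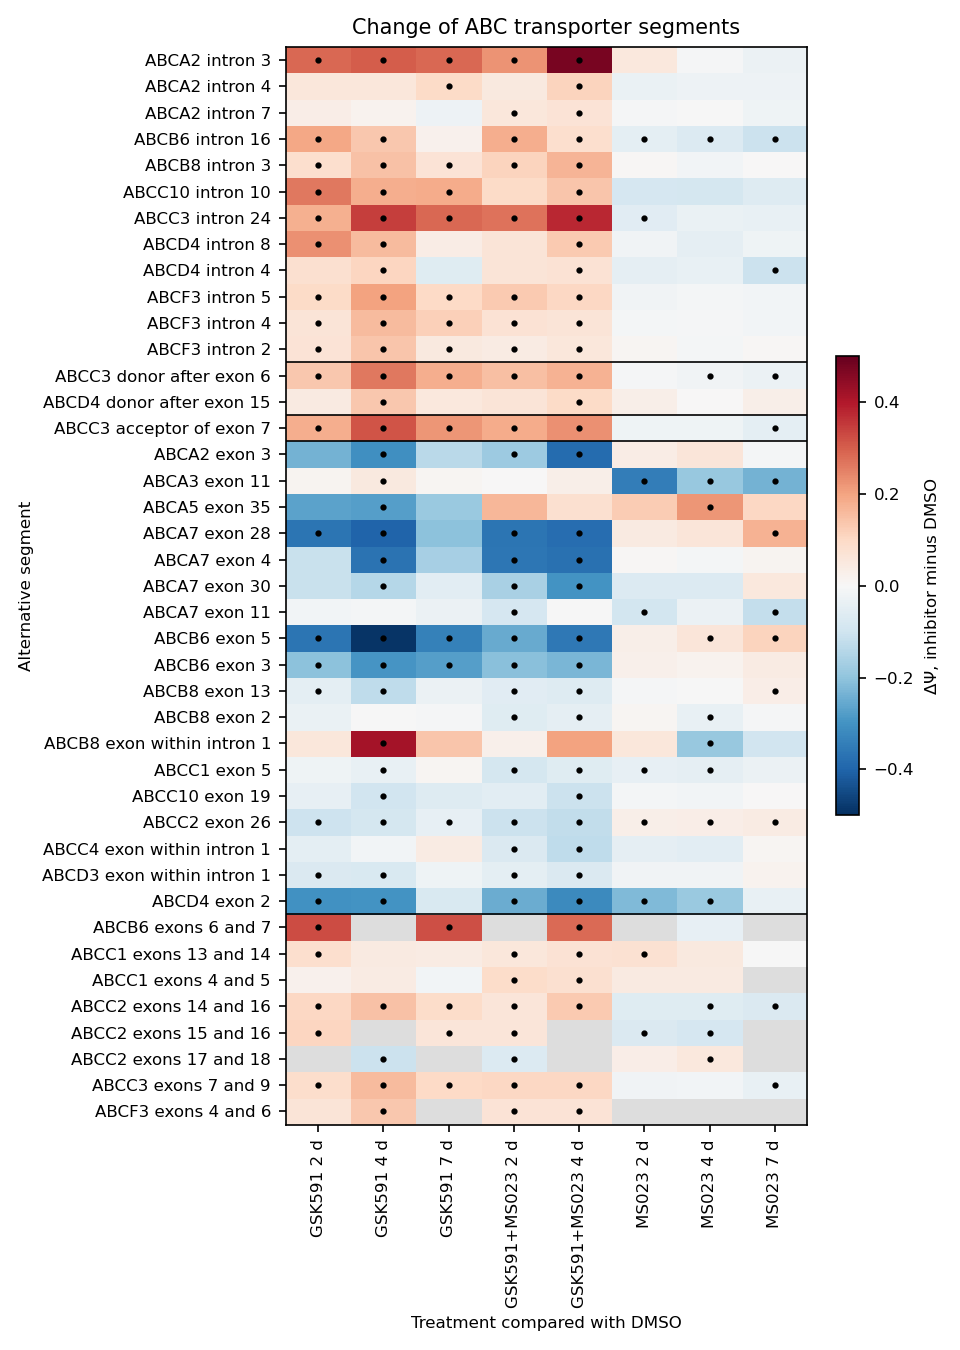
ΔΨ (inhibitor minus DMSO, colour scale from -0.5 to 0.5) of the 41 alternative segments of 14 ABC genes described by the rule for named events, in the 8 comparisons. Black dots mark called events and grey cells events that a table does not list. Called retained introns are coloured as higher and most called exons as lower with GSK591 and co-treatment, as in ABCC3 intron 24 (+0.378) and ABCB6 exon 5 (-0.489). ABCD4 intron 4 with GSK591 at 7 days, which was not called, is coloured as lower (-0.0597).

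In direct comparisons at the same time, GSK591 and MS023 differed in 64 of 454 tested ABC events at 2 days, 105 of 469 at 4 days, and 86 of 457 at 7 days, where 11.7%, 17.1%, and 14.7% of all events were called. Of the RI of ABC genes, 11 of 23, 14 of 22, and 13 of 24 were called, each with more retention with GSK591, against 31.4%, 40.9%, and 32.9% of all RI called in that direction. GSK591 and co-treatment differed in 14 of 477 ABC events at 2 days and 42 of 518 at 4 days (all events 4.41% and 6.53%). Co-treatment and MS023 differed in 82 of 474 and 94 of 458 (all events 13.9% and 17.3%). Between 7 and 4 days, the effect of GSK591 differed in 10 of 472 ABC events (all events 1.83%), and that of MS023 in 0 of 408 (all events 0.0779%) by the quasi-binomial F test, with 27 at an unadjusted p under 0.05. The share of all events at that unadjusted p is not given here.

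Of the 36 genes, 20 had a called event, and 14 of them are described above or drawn in the heat map. The other 6 had small or single changes. The share of all genes with a called event is not given here. Called ΔΨ was -0.0440 to +0.0106 in ABCG2, the breast cancer resistance protein and exporter of drugs and urate, -0.0655 to -0.0336 in ABCB10, a mitochondrial transporter, and +0.0888 in ABCA1, which loads cholesterol onto apolipoprotein A-I. Called ΔΨ was -0.0205 to -0.0145 in ABCF2, -0.0156 to +0.00502 in ABCE1, which recycles ribosomes, and +0.0887 to +0.275 in ABCC5, another exporter of cyclic nucleotides. The ABCA1 call was with GSK591 at 7 days, and its libraries overlapped DMSO, whose Ψ had a standard deviation of 0.114. Libraries also overlapped DMSO in the ABCB10 calls with GSK591 at 2 days and in some calls of ABCE1, ABCF2, and ABCG2. The ABCC5 calls were with co-treatment at 4 days, and the +0.275 rested on 24 to 48 reads per library (adjusted p = 0.048). ABCB9, ABCC6, ABCC8, ABCF1, and ABCG1 were among the genes with tested events and no call. ABCC6 shares near-identical sequence with pseudogene copies, so its counts are uncertain. The remaining 10 genes, ABCA4, ABCA6, ABCA8, ABCA10, ABCA12, ABCB4, ABCC11, ABCC12, ABCG4, and ABCG5, had no event that met the conditions for a test, and changes in them could not be assessed.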

How the data were processed

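The data are poly(A)-RNA seq of 30 A549 libraries. The submitters' processing notes name Trim Galore 0.6.5 and STAR 2.4.2a, with which the authors trimmed reads and aligned them to hg19, and the authors compared each inhibitor group with DMSO in rMATS (4.0.2 in the table names). The deposited tables hold whole-number read counts per event and library, not normalized, whose inclusion counts take in reads within the alternative segment. The deposited tables also hold effective lengths in bases, the authors' Ψ (fraction), ΔΨ, p-value, and FDR, none of which but the lengths was used. DMSO counts were the same in all tables that share a control (0 of 645455 event pairs differed). The number of per-sample columns left without a group was 0, but the control of the 7-day tables was inferred: it carries a code that no label explains, and was taken as DMSO at 7 days because the tables that the labels give for both 7-day inhibitor groups share it.

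Ψ was computed from counts and effective lengths. Events with at least 10 reads in all 6 libraries, and with reads of both forms, were fitted by a quasi-binomial model. The dispersion was moderated by limma 3.58.1 (squeezeVar, R 4.3.3), with a floor of 1. An F test was followed by Benjamini-Hochberg adjustment within event type and comparison over all genes. The script was tested on simulated data. Direct comparisons and the interaction of inhibitor with time (7 against 4 days) used the same model. The comparison of co-treatment with MS023 was added after values were seen. Replicates of a group differed by 1.313 to 3.358 times the sampling variance, so none was an identical copy of another. Events that share an exon also share reads, so these values cannot show whether the libraries came from separate cultures. Leaving out libraries, other read minimums, pooled adjustment, no dispersion floor, no effective lengths, 1 event per segment, and limma on log2 odds (0.5 added to each count) were tried as alternatives.

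Named events had to be called in at least 2 comparisons with a ΔΨ of at least 0.05 in size, or be among the 3 largest of a comparison, with at most 4 segments per gene given in full: 41 of 70 segments. Exons and introns were numbered on GENCODE v44lift37. ABC genes, lists, and rules were chosen with earlier results of these data known. SKaTER-seq and actinomycin D libraries among the 96 samples were not analysed here. Counts cover all members, and the result of 1 member is not reported here by name.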

Additional observations from a re-analysis of the deposited data

Results flagged for a closer look

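In ABC genes 10 of 472 tested events had an effect of GSK591 that differed between 7 and 4 days by the interaction test. This lay near the 1.83% of all events called by that test, so the count is not particular to ABC genes. An unadjusted p under 0.05 was reached by 79 of the 472, and the share over all events at that threshold is not given here. The difference given is ΔΨ at 7 days minus ΔΨ at 4 days, and 7- and 4-day libraries have their own DMSO groups. In ABCC3 the extra 3′ and 5′ splice sites of intron 6 differed by -0.0932 (ΔΨ from 0.314 to 0.221, adjusted p = 0.0406) and -0.0796 (from 0.263 to 0.183, adjusted p = 0.0109). In MXE events of ABCC3 the effect differed by -0.0859 (from 0.0979 to 0.0120, adjusted p = 0.00784), -0.0854 (from 0.166 to 0.0805, adjusted p = 0.0282), and -0.123 (from 0.245 to 0.122, adjusted p = 0.0465). A skipped exon of ABCC3 differed by +0.0563 (from -0.0179 to 0.0385, adjusted p = 0.0293). Intron 16 of ABCB6 differed by -0.116 (from 0.136 to 0.0197, adjusted p = 0.0173) and exon 5 of ABCB6 by +0.152 (from -0.489 to -0.337, adjusted p = 0.0293). Intron 4 of ABCD4 differed by -0.166 (from 0.106 to -0.0597, adjusted p = 0.0438) and exon 13 of ABCB8 by +0.0961 (from -0.126 to -0.0294, adjusted p = 0.0307). In all but the skipped exon of ABCC3 and the intron of ABCD4 the effect at 7 days kept its direction and was smaller than at 4 days.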

How the results depend on the processing

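No paired analysis was possible because the columns of the tables carry no replicate numbers. Limma on log2 odds moved the count of called ABC events to 8, 30, and 12 with GSK591 at 2, 4, and 7 days, 26 and 45 with co-treatment at 2 and 4 days, and 0 at each time with MS023, where 46, 47, and 73 had an unadjusted p under 0.05. The other alternatives, apart from leaving out a library, kept these counts within 1.5 times. Without 1 library, which also leaves fewer samples, counts were 32 to 52, 62 to 77, and 36 to 41 with GSK591, 67 to 86 and 69 to 86 with co-treatment, and 1 to 10, 6 to 17, and 16 to 23 with MS023. Between inhibitors they were 40 to 62, 72 to 93, and 55 to 69 for GSK591 against MS023, 6 to 15 and 23 to 28 for GSK591 against co-treatment, and 63 to 72 and 68 to 85 for MS023 against co-treatment. Counts moved by over 1.5 times without any of 4 of the 6 libraries with GSK591 at 2 and 7 days, MS023 at 2 and 7 days, and co-treatment at 2 days, 5 of 6 with MS023 at 4 days, GSK591 replicate c at 4 days (62), and co-treatment replicate a at 4 days (69). For the effect at 7 against 4 days they were 2 to 12 with GSK591 and 0 to 0 with MS023. The shares over all events are not given here for limma or for the counts without a library. Of the 172 calls on the events described, 111 were kept without each library in turn, and 61 were lost at least once, 39 of 138 with GSK591 or co-treatment and 22 of 34 with MS023. None of these 172 calls was reversed in direction by any alternative run. Events with few reads limit the smaller changes. The cause of the difference between the tests was not tested.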

Other observations

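A list of 34 related genes outside the symbol rule holds transporter partners, sterol regulators, and translation factors. It also holds TAP1, TAP2, and CFTR, which are ABC transporters under other symbols. Of the tested events of this list, 16 of 390, 24 of 390, and 20 of 307 were called with GSK591 at 2, 4, and 7 days. With co-treatment 45 of 400 and 39 of 404 were called, and with MS023 11 of 365, 12 of 369, and 14 of 326. Over all genes, the called share of events was 7.02%, 11.2%, and 8.93% with GSK591, 13.4% and 14.7% with co-treatment, and 3.16%, 3.75%, and 4.75% with MS023. Of the RI of the listed genes, 2, 5, and 3 were called with GSK591, 4 and 5 with co-treatment, and 0 with MS023, each of 10 or 11 tested, in NPC1, ABHD16A, STARD3, and NR1H3. All of these were higher but 1 with GSK591 at 7 days. Over all genes, 26.4%, 38.2%, and 27.9% of RI were called with GSK591, 34.7% and 39.7% with co-treatment, and 5.65%, 7.17%, and 11.4% with MS023.

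Among ABC exons called lower, those whose length is not a multiple of 3 were 20 of 27, 25 of 36, and 11 of 13 with GSK591 at 2, 4, and 7 days, or 74.1%, 69.4%, and 84.6%, against 54.1%, 55.5%, and 56.9% of the tested exons. With co-treatment they were 65.2% and 66.7%, against 55.6% at both times. With MS023 they were 1 of 7, 3 of 7, and 3 of 7, or 14.3%, 42.9%, and 42.9%, against 53.5%, 53.8%, and 55.9%, and so lay below the tested exons where those with GSK591 and co-treatment lay above them. These shares are given as a description. The same shares over the exons of all genes were not computed, so whether they are particular to ABC genes is not known.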
